A study of Caenorhabditis elegans with 2 samples.

Results

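The pre-mRNA splicing genes described here are the protein-coding genes of the nuclear chromosomes whose symbols begin with snr, snrp, lsm, rsp, prp, rnp, uaf or sfa followed by a number. There were 52 of them among 19973 protein-coding genes. They were read for CEH-2 peaks in their promoters. CEH-2 belongs to the homeodomain transcription factors of the nematode Caenorhabditis elegans. Whole hermaphrodite late embryos of strain OP323 were taken 5 hours after synchronization by egg bleaching, and sonicated chromatin was immunoprecipitated with an antibody against GFP. The strain stably carries CEH-2 with a C-terminal GFP-FLAG tag, and the labels give 1 group of 2 biological replicates, no untagged strain and no second condition. Neither the promoter that drives the fusion nor the number of lines behind the strain is stated in the labels. Because whole embryos were used, a peak does not say in which cells the protein was bound.

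Splicing removes introns from pre-mRNA on the spliceosome, which is built from small nuclear ribonucleoproteins (snRNPs) and many further proteins. Sm proteins form a ring on most spliceosomal small nuclear RNAs, and LSm proteins form a related ring on U6 RNA. SR proteins are RNA-binding proteins rich in arginine and serine that help to choose splice sites. PRP factors are named after yeast mutants in pre-mRNA processing and include snRNP subunits and remodelling factors. Splicing is used in all cells of the embryo, so these genes are not tied to the pharynx, a known site of ceh-2 expression. The choice by symbol also takes in genes with other known roles, such as lsm-1, whose yeast and human counterparts act in cytoplasmic mRNA decay, and rnp-8, a partner of the cytoplasmic poly(A) polymerase GLD-2.

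By symbol, 19 genes encode snRNP proteins, of which 7 are Sm proteins (snr), 7 are LSm proteins (lsm) and 5 are further snRNP subunits (snrp). A further 8 encode SR proteins (rsp) and 13 encode PRP factors (prp). The other 12 encode RNA-binding proteins and splice site factors, 9 named rnp, 2 named uaf and 1 named sfa. The group of 12 is mixed, since the counterparts of rnp-2 and rnp-7 are themselves snRNP proteins.

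The reproducible peaks are those of the optimal set that the authors derived with the irreproducible discovery rate. They were set beside a relaxed list from both replicates together and a relaxed list from each replicate. A peak counted for a gene when its summit, the highest point of the peak, lay between 1000 bp upstream and 200 bp downstream of any transcript start of the gene. Positions are on ce11. The signal is the value the authors' caller gave each peak, its scale is not stated, and it is compared only within a list. The 1453 reproducible peaks were the 1453 pooled peaks with a signal at or above 86.3, so a summit below that value is called weak. The lists hold no read counts, so the depth of the replicates is unknown.

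Sequences around 8 of the 11 summits are shown first, because some of them hold the same short runs of bases. The windows not shown are those of snr-2, snrp-40.1 and snr-6, and none of them holds a run marked here. Each line gives up to 50 bp to either side of a summit, 5′ to 3′ on the strand of the first named gene, from the RefSeq genome of the same assembly. The window of prp-19 is shortened to leave out an annotated UTR. Capitals mark the runs ACGCGC and CGCTCC, which can overlap each other, and the run GGCCAC, each read on either strand.
prp-19, chrIII:5172654-5172719, minus strand: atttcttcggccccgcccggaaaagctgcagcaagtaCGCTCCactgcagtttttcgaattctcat
snr-1, chrIV:17087568-17087668, plus strand: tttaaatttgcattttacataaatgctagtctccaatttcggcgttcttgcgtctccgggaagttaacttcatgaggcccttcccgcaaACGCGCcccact
prp-21, chrII:484591-484691, plus strand: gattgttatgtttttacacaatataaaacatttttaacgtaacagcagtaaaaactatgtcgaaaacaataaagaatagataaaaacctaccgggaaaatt
rsp-2 and rsp-1, chrII:11453187-11453287, minus strand: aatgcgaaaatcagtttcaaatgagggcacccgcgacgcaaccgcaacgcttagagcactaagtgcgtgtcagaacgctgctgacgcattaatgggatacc
lsm-3, chrIV:13386191-13386291, plus strand: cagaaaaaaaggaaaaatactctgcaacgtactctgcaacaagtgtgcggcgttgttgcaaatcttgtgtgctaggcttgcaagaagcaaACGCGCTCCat
rnp-2, chrIV:4171931-4172031, plus strand: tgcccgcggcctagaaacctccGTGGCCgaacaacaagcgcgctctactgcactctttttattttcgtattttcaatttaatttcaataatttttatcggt
rsp-8, chrIII:11825789-11825889, plus strand: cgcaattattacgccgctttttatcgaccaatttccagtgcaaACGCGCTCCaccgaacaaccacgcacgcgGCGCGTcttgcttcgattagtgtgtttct
prp-8, chrIII:8164040-8164140, plus strand: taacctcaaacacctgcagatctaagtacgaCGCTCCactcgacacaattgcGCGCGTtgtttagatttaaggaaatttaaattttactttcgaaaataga

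Promoter peaks were found for 12 of the 52 splicing genes in the reproducible set, or 23.1% (95% Wilson interval 13.7 to 36.1, which covers the counting of genes only). Of all protein-coding genes, 5.97% had one. With weak pooled summits counted in, 32 of the 52 had a promoter summit, or 61.5%, against 29.4% of all genes. In replicate 1 alone, 33 splicing genes had a relaxed summit against 30.8% of all genes, and in replicate 2 alone 30 had one against 28.2%. The share of splicing genes was thus above that of all genes in each of the 4 lists. All 4 come from the same 2 replicates, so they are not separate evidence. When each reproducible summit was given only to the nearest transcript start, 7 splicing genes had one against 4.28% of all genes, and with peaks at or above the median signal only, 5 had one against 3.46%. No test was run on these shares, since the genes were chosen with earlier results of these data known.

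**Figure D1:**
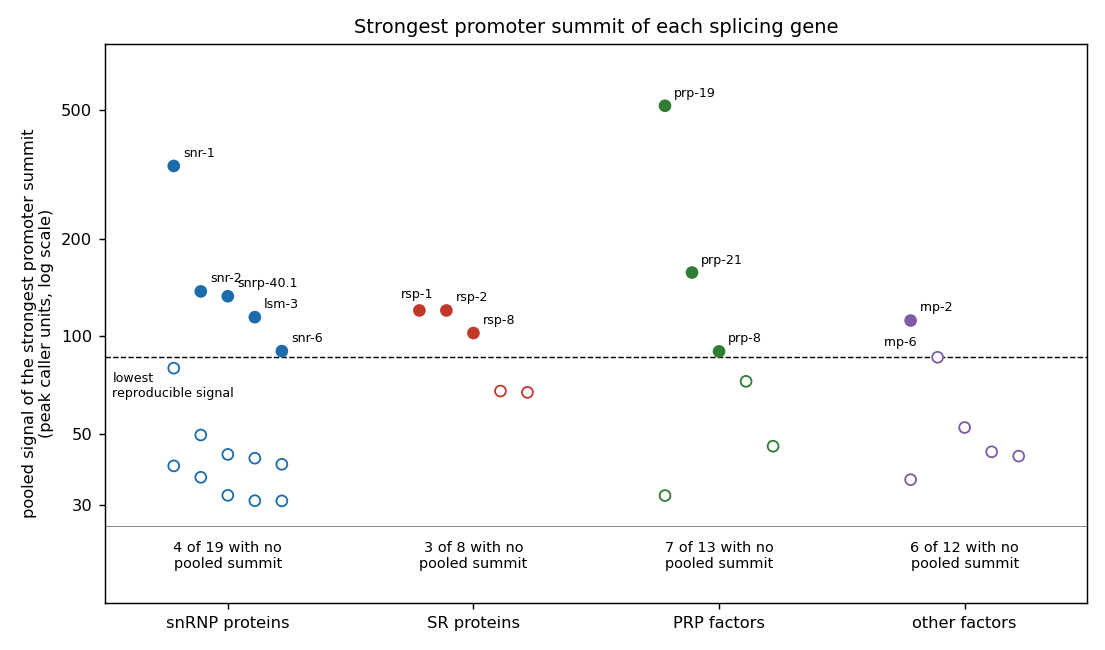
Pooled signal of the strongest promoter summit of each splicing gene, in the peak caller's units on a log axis, in columns for snRNP proteins, SR proteins, PRP factors and the other factors. Filled points are reproducible summits, open points are weak ones, the dashed line is the lowest reproducible signal, 86.3, and the text under each column counts the genes with no pooled summit. The points of prp-19 at 515 and snr-1 at 336 stand above all others.

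By role, 5 of 19 snRNP protein genes had a reproducible promoter summit, or 26.3%. Among SR protein genes it was 3 of 8, or 37.5%, and among PRP factor genes 3 of 13, or 23.1%. Of the other factors 1 of 12 had one, 8.33%, a share near that of all genes. The intervals of these shares overlapped widely, from 11.8% to 48.8% for snRNP proteins, 13.7% to 69.4% for SR proteins and 8.18% to 50.3% for PRP factors, so no order among them can be read at these group sizes. All 4 shares stood beside 5.97% of all genes. With the nearest transcript start only, the snRNP proteins fell to 2 of 19. The SR proteins then had 2 of 8, the PRP factors 2 of 13 and the others 1 of 12, against 4.28% of all genes. At or above the median signal the counts were 3 of 19 snRNP proteins, 0 of 8 SR proteins, 2 of 13 PRP factors and 0 of 12 others. Of all genes, 3.46% had such a summit. A weak pooled summit and no reproducible one was found at 10 of 19 snRNP protein genes and 2 of 8 SR protein genes. The same held for 3 of 13 PRP factor genes and 5 of the 12 others. Over all 19973 protein-coding genes, 5880 had a pooled promoter summit, and 1192 of these had a reproducible one. With weak pooled summits counted in, 15 of 19 snRNP genes (78.9%) and 5 of 8 SR genes (62.5%) had a promoter summit. Of the PRP factor genes 6 of 13 (46.2%) had one and of the others 6 of 12 (50%), against 29.4% of all genes. No order is read from these counts either.

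Among the PRP factors, prp-19 had the strongest summit of all splicing genes. Its yeast and human counterparts are ubiquitin ligases at the core of a complex that acts when the spliceosome is activated. The pooled signal was 515, which ranked 11 among the 1192 genes with a reproducible promoter summit. The signal was 243 in replicate 1, rank 17 of 6156 genes with a relaxed promoter summit there, and 270 in replicate 2, rank 11 of 5634. The summit lay at 5172704 on chromosome III, 659 bp upstream of prp-19 but 16 bp upstream of its divergent neighbour K10D2.5, and 735 bp upstream of emb-1. It was therefore far closer to the start of K10D2.5 than to that of prp-19.

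The gene prp-21, whose human counterpart is a U2 snRNP subunit, had a pooled signal of 157, with 78.6 in replicate 1 and 89.6 in replicate 2. That summit lay 225 bp upstream, between prp-21 and the divergent gene gldi-1. The gene prp-8, which encodes the large U5 snRNP protein at the catalytic centre, had a signal of 89.8, just above the lowest reproducible value. The replicates placed prp-8 differently, at 52.6 and rank 898 in replicate 1 but at 34.3 and rank 1829 in replicate 2. Of the PRP factors, prp-19 alone stood among the strongest genes of the set in both replicates.

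Of the snRNP proteins, snr-1, which encodes Sm protein D3, was highest. Its summit had a pooled signal of 336, rank 78 of 1192 genes, with 157 in replicate 1 and 181 in replicate 2, ranks 85 and 70. It lay 431 bp upstream of snr-1 and 180 bp upstream of the divergent sorting nexin gene snx-13. The gene for Sm protein B, snr-2, had a pooled signal of 138, with 68.3 and 73.0 in the replicates, 366 bp upstream. The gene for Sm protein E, snr-6, had 90.0, with 35.6 and 51.5, 219 bp upstream. The 3 Sm genes with a reproducible summit thus ran from close to the lowest reproducible value to rank 78.

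The 4 remaining Sm genes had weak summits or none in the pooled list. The strongest of them was snr-4, for Sm protein D2, at 79.7, with 27.6 in replicate 1 and 52.2 in replicate 2. It was followed by snr-7 at 43.1, found in replicate 2 only, and snr-3 at 32.2. The pooled summit of snr-3 lay 871 bp upstream, replicate 1 had a summit of 16.4 at 873 bp upstream and a stronger one of 19.4 at 50 bp downstream, and replicate 2 had none. The gene snr-5 had no pooled summit, and its replicate summits of 16.0 and 20.9 lay at different places, 929 bp upstream and 26 bp downstream.

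Among the further snRNP subunits, snrp-40.1, whose human counterpart is a WD-repeat protein of the U5 snRNP, had a pooled signal of 133. It was 52.1 in replicate 1 and 81.5 in replicate 2, ranks 909 and 489, and its summit lay 11 bp upstream of the start. Its paralogue by name, snrp-40.2, had no summit in any list. The gene snrp-200, for the counterpart of the yeast helicase Brr2, had a weak pooled summit of 39.8, found in replicate 1 only.

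Of the LSm proteins, lsm-3 alone had a reproducible promoter summit, at 115, with 45.98 in replicate 1 and 69.0 in replicate 2. It lay 962 bp upstream, near the edge of the window, and closer to 3 other genes. It was 83 bp from the start of Y62E10A.23, 139 bp from that of the Mediator subunit gene mdt-9 and 150 bp from that of Y62E10A.20. Of the other 6 LSm genes, lsm-1, lsm-5, lsm-6, lsm-7 and lsm-8 had weak pooled summits between 31.0 and 42.0, and lsm-4 had none in any list. A weak summit was in both replicates' lists for lsm-7 only, and the other 4 genes each had one in the list of a single replicate.

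The SR protein genes rsp-1 and rsp-2 shared 1 reproducible summit, since they start 406 bp apart on opposite strands. It lay at 11453237 on chromosome II, 125 bp upstream of rsp-1 and 282 bp upstream of rsp-2, with a pooled signal of 120. The signal was 59.8 in replicate 1 and 62.1 in replicate 2, ranks 734 and 763. The gene rsp-8, related to Transformer-2 of Drosophila, had a signal of 102, with 43.6 and 55.1 in the replicates, 579 bp upstream. The 3 SR protein genes with a reproducible summit thus rest on 2 summits.

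Of the other SR protein genes, rsp-6 had a weak pooled summit of 67.7, with 39.4 and 27.8 in the replicates. The gene rsp-3, for the counterpart of human SF2/ASF, had 67.1, with 26.3 and 40.0. The genes rsp-4, for the counterpart of human SC35, and rsp-5 had a summit in replicate 1 only, at 23.3 and 19.4, and rsp-7 had none in any list. The summit of rsp-5 was at the same place as the stronger one of the Sm gene snr-3 in replicate 1. These genes form a divergent pair 403 bp apart, much like rsp-1 and rsp-2, but without a reproducible summit.

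Among the other factors, the reproducible summit was that of rnp-2, related to the human protein A of the U1 snRNP and B″ of the U2 snRNP. It had a pooled signal of 112, with 60.2 in replicate 1 and 51.2 in replicate 2, and lay 95 bp upstream. The gene rnp-6, for the counterpart of the human splicing factor PUF60, missed the reproducible set narrowly, at 86.1, with 42.7 and 43.7 in the replicates. The genes for the factors that recognise the 3′ splice site and branch point had low promoter signals or none. The pooled promoter summit of uaf-2, for the small U2AF subunit, was 42.6 and that of sfa-1, for the branch point binding protein, was 44.0. The gene uaf-1, for the large U2AF subunit, had no promoter summit in any list. Outside its promoter window sfa-1 had a stronger, reproducible summit of 170 in an intron, described below.

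The 10 strongest weak promoter summits were those of rnp-6, snr-4, prp-40 (72.6), rsp-6, rsp-3, rnp-1 (52.2), snrp-3 (49.5), prp-31 (45.7), sfa-1 and snr-7. The gene prp-40, for a U1 snRNP factor of yeast, had 49.3 in replicate 1, at 9521884, close to the pooled summit at 9521898. Its strongest summit in replicate 2, 28.3, lay at a different place, 9523861, near another of its transcript starts. Of the 20 genes with a weak pooled summit, 11 had a summit in both replicates' lists, 5 in that of replicate 1 only and 4 in that of replicate 2 only. A further 7 genes had a summit in a replicate's list but none in the pooled one (prp-6, prp-17, prp-18, rnp-5, rsp-4, rsp-5 and snr-5). No promoter summit in any list was found for 13 genes, namely lsm-4, snrp-27, snrp-40.2, rsp-7, prp-3, prp-4, prp-38, prp-39, rnp-3, rnp-4, rnp-7, rnp-8 and uaf-1. Of all 19973 genes, 5880 had a pooled promoter summit, and 3967 had one in both replicates' lists, beside 24 of the 52 splicing genes. The classes above were not counted over all genes, so none of these counts is read as high or low.

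**Figure D2:**
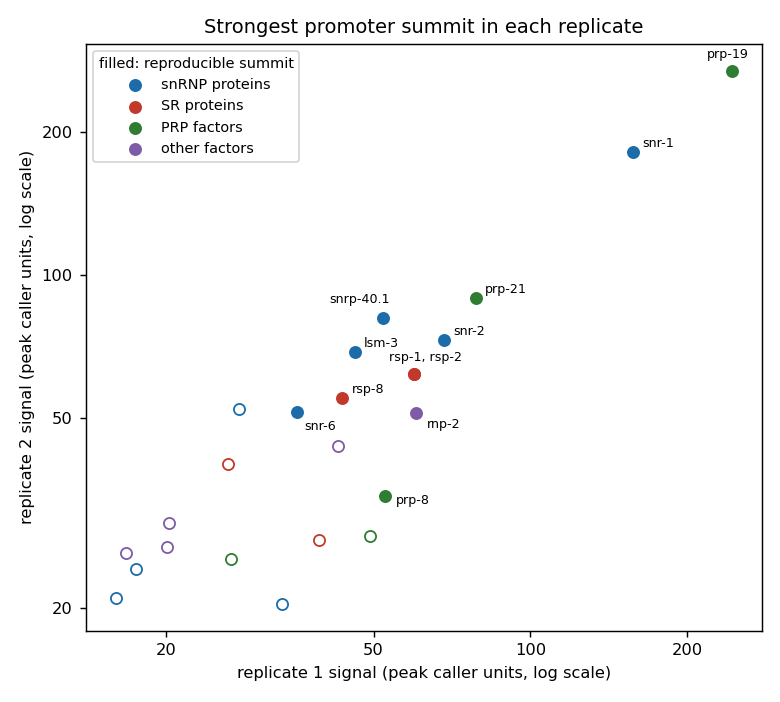
Signal of the strongest promoter summit of each splicing gene in replicate 1 (x axis) and replicate 2 (y axis), both in peak caller units on log axes, for the 24 genes with a summit in both lists. Filled points had a reproducible summit, open points did not, and colours give the role. The points of prp-19 and snr-1 are highest in both replicates, and prp-8 has the lowest replicate 2 value of the filled points.

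The replicates ordered the splicing genes similarly. For the 24 genes found in both replicates, the rank correlation (Spearman's rho) of their strongest signals was 0.82, a description across genes that share the same 2 libraries. Over all 3967 genes with a summit in both lists it was 0.72. The strongest summits of a gene can lie at different places in the replicates, as at prp-40, uaf-2 and snr-5. The summit shared by rsp-1 and rsp-2 was counted for each of them. With only replicate peaks that overlap the pooled peak, rho was 0.78 over 23 splicing genes.

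The reproducible summits of the splicing genes lay upstream and mostly between genes that start in opposite directions. The 12 genes had 11 distinct summits, all upstream of the gene's closest start, at a median of 282.5 bp (265 bp over all genes with an upstream reproducible summit). All 11 were intergenic with respect to protein-coding genes, against 81.8% of the 896 reproducible promoter summits. Of the 11, 10 lay in the window of more than 1 protein-coding gene, or 90.9%, against 37.3% of the 896. That of rsp-8 was the exception. A summit between a pair of genes cannot be given to one of them from these lists.

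**Figure D3:**
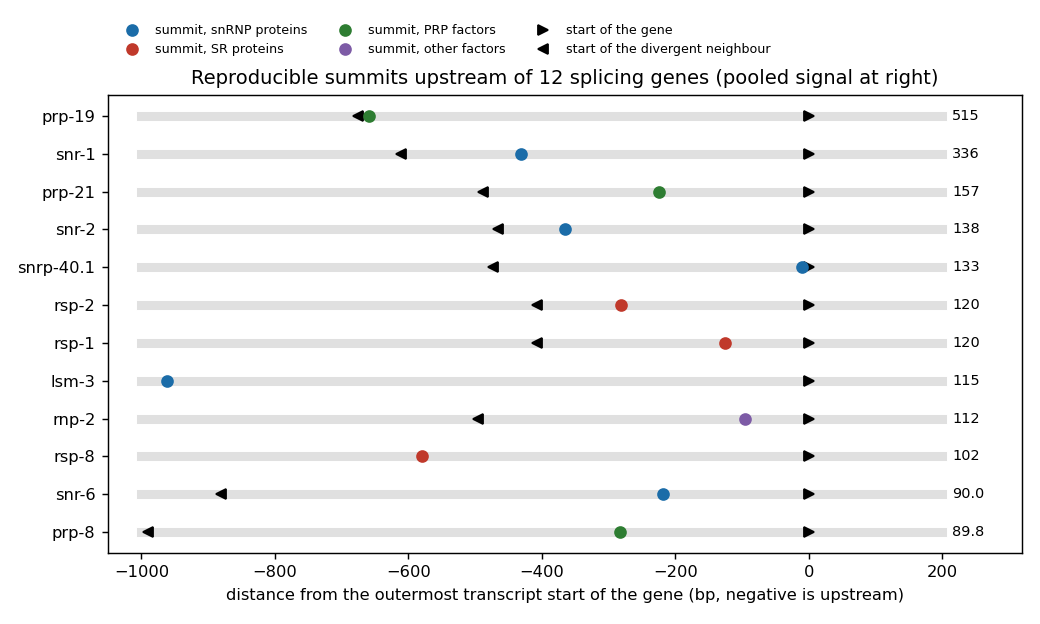
Position of the reproducible promoter summit (coloured point) of 12 splicing genes, in bp from the outermost transcript start of the gene (right-pointing arrowhead, upstream is negative), with the start of the divergent neighbour (left-pointing arrowhead) where there is one and the pooled signal at the right. The grey bar is the promoter window. In 10 rows the summit lies between both starts, and in those of lsm-3 and rsp-8 there is no divergent neighbour.

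The arrangement of neighbouring genes was therefore counted, by rules chosen after the summits had been seen. The nearest gene upstream started within 1000 bp on the other strand for 26 of the 52 splicing genes, or 50%, against 17.2% of all genes. Of these 26, 10 had a reproducible summit, or 38.5% (Wilson interval 22.4 to 57.5), against 517 of 3439 such genes in the genome, or 15.03%. The share was thus above that of all genes also among genes with a divergent neighbour. Of the remaining 8 splicing genes that did not follow a gene closely, rsp-8 had one, against 4.17% of such genes in the genome. The splicing genes at a divergent promoter count some summits for each gene of a pair, as with rsp-1 and rsp-2.

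**Figure D4:**
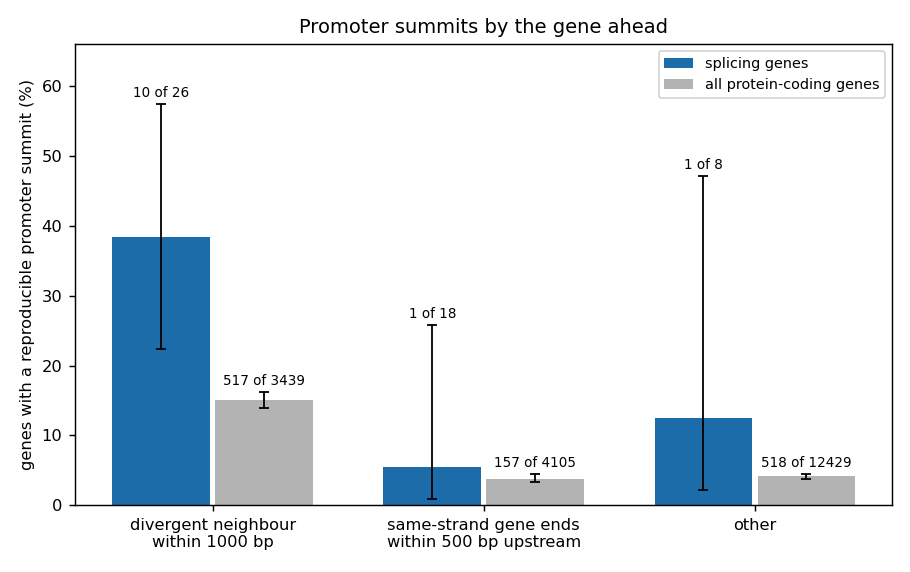
Percentage of genes with a reproducible promoter summit, for splicing genes (blue) and all protein-coding genes (grey), by whether the nearest upstream gene starts within 1000 bp on the other strand, ends within 500 bp on the same strand, or neither. Error bars are 95% Wilson intervals and the text gives the counts. The highest bar is that of splicing genes with a divergent neighbour, 10 of 26.

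Many worm genes lie in operons, in which a promoter ahead of the first gene serves the genes behind it. The annotation used here does not name operons, so genes were counted that start within 500 bp of the end of a gene on the same strand, or inside it. This held for 18 of the 52 splicing genes, or 34.6%, against 20.6% of all genes. Of these 18, lsm-3 alone had a reproducible summit in its own window, 5.56%, against 3.82% of such genes in the genome. When the run of closely spaced genes was followed to its first gene, the window of that first gene held a reproducible summit for 7 of the 18, or 38.9%, against 502 of 4105, or 12.2%. In both the splicing genes and all genes, a summit at the first gene was more frequent than one at the follower itself.

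Those 7 include prp-38, which starts 106 bp behind plrg-1, a gene for a subunit of the PRP19-related complex. The summit of plrg-1 had a signal of 264, 195 bp upstream of its start, while prp-38 had no summit in any list. The gene rnp-3 starts 72 bp behind rnp-2 and had no summit of its own in any list, while rnp-2 had the one given above. The gene prp-39 starts 90 bp behind hmgs-1 (93.4), lsm-6 starts 232 bp behind ubc-3 (97.5), and lsm-8 starts 103 bp behind sqd-1 (134). For rsp-4 the first gene was fbxl-3, with 4 genes ahead of rsp-4 and a signal of 89.3, close to the lowest reproducible value of 86.3. That summit lay 485 bp from the start of fbxl-3 but 151 bp upstream of mog-5, another splicing gene, counted in the longer list below. For lsm-3 the first gene was Y62E10A.23, with the summit described above. With these first genes counted in, 18 of 52 splicing genes had a reproducible summit at their own start or that of the run, or 34.6%, against 8.23% of all genes. Whether these genes are transcribed from the first promoter was not tested.

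A summit can also lie in a gene but outside the promoter window. This was so for sfa-1, which had a reproducible summit in an intron, 2583 bp downstream of its start, with a pooled signal of 170, 101 in replicate 1 and 67.2 in replicate 2. It lay in the promoter window of no protein-coding gene. The gene sfa-1 follows uaf-2 in one run, with cyn-13 between them, and neither start had a reproducible summit. For the 40 splicing genes without a reproducible promoter summit, the closest reproducible summit was a median of 17862.5 bp away, and for rsp-5 alone it was within 2000 bp. These 40 were picked for having no summit in the window, and the distance was not taken for all genes, so it is not read further.

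Base composition and short sequences were read within 50 bp of the 11 summits. The median GC content was 46.5%, from 25.7% at prp-21 to 58.4% at snrp-40.1, against a median of 49.5% at the 896 reproducible promoter summits. The run ACGCGC lay at 4 of the 11 (snr-1, lsm-3, rsp-8 and prp-8), or 36.4%, against 14.7% of the 896, and CGCTCC at 4 (prp-19, lsm-3, rsp-8 and prp-8) against 10.5%. Neither was found in the 22 windows 300 bp to either side of the 11 summits, and over all 896 summits such windows held them in 2.18% and 2.29%. Both runs were picked after the sequences had been seen, from 20 runs of 6 bases found at 4 or more of the 11 summits. Of those 20, 7 were absent from all 22 windows, ACGCGC and CGCTCC among them, so this absence also holds for other runs. Another of the 7, ACGCCG, lay at 4 of the 11 summits against 3.46% of the 896. In the sequences printed above, ACGCGC and CGCTCC join into 1 run at lsm-3 and rsp-8, while at prp-8 they are apart.

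Other runs were also counted. GGCCAC lay at 1 summit, that of rnp-2, against 17.5% of the 896, and GAGAGA at 0 of 11, which allows a share of up to 27.3%, against 21.1%. The homeodomain cores TAATTA and TAATGA lay at 0 of 11 each, against 2.68% and 1.67%, so neither count could differ detectably from that of all summits. Within 100 bp, GAGAGA or GGCCAC lay at 3 of 11, or 27.3%, against 439 of the 896, where within 50 bp it was 1 of 11, or 9.09%, against 35.7%. No summit of a splicing gene lay within 300 bp of a tRNA, snoRNA or snRNA gene, against 7.25% of the 896. The closest was 1450 bp away, at prp-8.

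Of a longer list of splicing genes outside these symbols, 92 were found in the annotation and 20 had a reproducible promoter summit, or 21.7%, beside 5.97% of all genes. At or above the median signal it was 12 of 92, beside 3.46%. The highest was wbp-4, whose human counterpart is a spliceosomal protein, at 450, with 214 in replicate 1 and 235 in replicate 2. That summit also lay in the promoter window of F56G4.6, and 9 of the 20 genes shared their summit with another gene. With each summit given only to the nearest transcript start, 17 of 92 had one, against 4.28% of all genes. The genes wbp-4, eif-4A3 and tiar-1 were then lost. Other genes with high signals were mog-3 (297), smu-2 (293), cwc-15 (276), plrg-1 (264) and asd-1 (234), of which asd-1 encodes a relative of the Fox-1 splicing regulators. Lower signals were found at sna-2 (164), for a protein of the trans-splicing SL1 snRNP, mog-4 (157), whose yeast counterpart is the helicase Prp2, and eif-4A3 (140), for the helicase of the exon junction complex. The lower 10 ran from 136 at hel-1 to 87.4 at tiar-1. A further 44 of the 92 had weak pooled summits, from 29.4 to 80.6, and 28 had no pooled summit. With weak summits counted in, 64 of the 92 had a pooled promoter summit, or 69.6%, against 29.4% of all genes.

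Genes of other large machines used in all cells gave shares of reproducible summits on both sides of that of the splicing genes. Cytosolic ribosomal protein genes (symbols rpl and rps) had a reproducible promoter summit in 27 of 78, or 34.6%, and proteasome subunit genes (pas, pbs, rpn and rpt) in 6 of 33, or 18.2%. Among those with a divergent neighbour within 1000 bp it was 19 of 47 and 4 of 20, beside 10 of 26 splicing genes. The shares over all genes were 5.97%, and 15.03% of those with such a neighbour. With weak pooled summits counted in, both groups stood above the 61.5% of splicing genes. The ribosomal protein genes had 69 of 78, or 88.5%, and the proteasome genes 25 of 33, or 75.8%, against 29.4% of all genes. No test of a difference between these groups was run.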

How the data were processed

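The authors deposited, per the file headers, a relaxed peak list from each replicate's alignments with a control, one from both, and the optimal set derived from these lists. The sources used here do not name the peak caller, aligner, filters or threshold. The deposited signal of a peak is the caller's own value and was compared only within a list. The ce11 lists were used, and the ce10 lists were not used. Summits were placed in windows around all transcript starts of protein-coding genes of Ensembl release 115 (WBcel235, the same assembly as ce11), and a summit was given to every gene whose window held it. The window search recovered 200 of 200 planted summits. With 1 group there is no contrast, so counts stand beside those over all genes, with no test. Wilson intervals cover counting only. The members and lists were chosen with earlier results of these data known. The listed genes outside the symbols were 92 of 104 symbols matched. Named are all members with a reproducible promoter summit, the 10 with the strongest weak ones, and the 10 highest listed genes, of which 1 is not reported here. Others were named after their values were seen. Replicates are biological per the labels. Alternatives were other windows, overlap rules and gene assignments, each replicate alone and a stricter set. The tools were pandas 2.3.3 and numpy 2.4.6 under Python 3.11.15, with statsmodels 0.14.6 for intervals, scipy 1.17.1 for rank correlations and matplotlib 3.10.9 for figures.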

Additional observations from a re-analysis of the deposited data

How the results depend on the processing

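With only peaks at or above the median signal of the reproducible nuclear set, 125.5, 5 of 52 splicing genes had a promoter summit. These were 3 of 19 snRNP proteins, 0 of 8 SR proteins, 2 of 13 PRP factors and 0 of 12 other factors. The listed genes had 12 of 92, against 3.46% of all genes, and this setting keeps fewer peaks. With each summit given only to the nearest transcript start, 7 of 52 splicing genes had one, against 4.28% of all genes. By role it was 2 of 19 snRNP proteins, 2 of 8 SR proteins, 2 of 13 PRP factors and 1 of 12 other factors. The genes lsm-3, prp-19, rsp-2, snr-1 and snr-2 were lost to closer neighbours. Without either replicate the counts were 11 to 12 splicing genes, 4 to 6 snRNP proteins, 2 to 3 SR proteins, 2 to 4 PRP factors, 1 other factor, 19 to 22 listed genes and 30 to 33 genes with a relaxed summit. Of all genes, 5.94% had a promoter summit without replicate 1 and 5.8% without replicate 2. The data hold no reproducible set for a single replicate, so these counts are not of reproducible summits. They rest on only part of the relaxed list of the replicate that was left. For relaxed summits the shares of all genes were 28.2% and 30.8%. Among the splicing genes chosen by symbol, the calls that moved were snr-4, gained without replicate 1, prp-40, gained without replicate 2, prp-8, lost without replicate 1, and rsp-8 and snr-6, lost without replicate 2. Of the listed genes 5 were gained and 3 lost without replicate 1, and 2 were gained and 3 lost without replicate 2. With a window of 500 bp upstream, lsm-3, prp-19 and rsp-8 were lost, leaving 9 of 52, against 4.69% of all genes. All other alternatives run for these counts stayed within 1.5 times. The share of summits with GAGAGA or GGCCAC went from 9.09% within 50 bp to 27.3% within 100 bp. The setting with protein-coding transcripts only was chosen after seeing the data and gave 12. No paired analysis was possible because there is 1 group. The depth is unknown, so a missing weak summit does not show an absent one.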

Other observations

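The splicing genes with a reproducible promoter summit were spread over 5 of the 6 nuclear chromosomes. Chromosome III held 4 among 12 splicing genes, where 9.09% of all its genes had such a summit. Chromosome II held 3 among 11 (207 of all its 3449 genes) and chromosome IV 3 among 11 (4.97%). Chromosome I held 1, snr-2, among 10 (8.86%), chromosome V held 0 among 6 (3.64%) and the X chromosome 1 of 2 (5.31%).

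Summits of the pooled list also lay inside splicing genes, outside the promoter window, in 16 of the 52 genes, or 30.8%, against 22.7% of all genes. The highest apart from that of sfa-1 was in rnp-8, with a pooled signal of 85.2, just under the lowest reproducible value of 86.3, followed by snrp-200 at 55.6, which had 4 such summits.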
